A study of Homo sapiens with 6 samples.

Results

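The transcripts described here are those of 10 genes that transfer fucose to glycans or proteins, FUT1, FUT2, FUT3, FUT4, FUT5, FUT6, FUT8, FUT10, FUT11 and POFUT1, out of 60546 gene identifiers measured in HCT-116 cells. The 10 genes were picked by name, with the rise of FUT3 between the groups already known to be among the largest. Their differences between the groups are therefore given as a description and without a test. HCT-116 cells are a widely used line derived from a human colon carcinoma. The cells had been made stable with the viral expression vector PMSCV, either carrying GOLPH3 (HCT-116-PMSCV-GOLPH3) or empty (HCT-116-PMSCV-Vector), and total RNA was taken with Trizol from 3 generations of each line. All 6 libraries are labelled as wild type in genotype, share the colon origin and the growth in Dulbecco's medium with fetal bovine serum, and carry a number after the letter P in their titles. That number was P8, P12 and P13 for GOLPH3 replicates 1, 2 and 3, and P12, P11 and P13 for Vector replicates 1, 2 and 3, and its meaning is not given in the sources used here. The libraries of a group are samples of a single stable line, so p-values measure the spread between these samples only.

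Fucose is a sugar that is added last to many glycan chains. FUT1 and FUT2 add it in α1,2 linkage to galactose, which makes the H antigen. FUT3, named the Lewis gene, adds it in α1,3 or α1,4 linkage to N-acetylglucosamine, which makes the Lewis a and b and the Lewis x and y antigens, and FUT4, FUT5 and FUT6 act in α1,3 linkage. Sialylated Lewis a is the epitope of the tumour marker CA19-9, and sialylated Lewis a and x are ligands of selectins on endothelium. FUT8 adds the core fucose at the base of N-glycans, POFUT1 adds fucose directly to proteins such as Notch in the endoplasmic reticulum, and FUT10 and FUT11 are less studied genes grouped with the α1,3 enzymes by sequence. GOLPH3 is an adaptor protein that helps to keep glycosyltransferases in the Golgi.

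Every value below is a normalized read number, that is, reads per gene divided by a size factor of the library, unless it is said to be on a log2 scale. Reads per library were between 15708846 and 21900764, and mitochondrial genes took 4.41% to 9.97% of them. A count of 0 allows a level of up to 3 reads, or 2.47 to 3.29 normalized reads depending on the library, which covers counting error only. Differences are GOLPH3 minus Vector on the log2(value + 1) scale, which understates the change of low genes, with the standard error (SE) from limma fitted over the 26536 genes that reached 1 in 3 libraries or more. GOLPH3 itself had 1630, 1272 and 1383 in GOLPH3 replicates 1, 2 and 3 and 1968, 1892 and 1472 in Vector replicates 1, 2 and 3, so the labelled transgene was not detectably higher as a transcript (log2 difference -0.31, 95% confidence interval -0.91 to 0.28, limma adjusted p = 0.609, exact two-sided permutation p = 0.2). Moreover, 174 genes stayed at or under 3 reads throughout the libraries labelled GOLPH3 but exceeded a value of 50 throughout those labelled Vector. Of the 10 fucosyltransferases, 0 were among these genes. The groups are therefore named here by their labels, and every direction below is that of the labels. Whether a library carries the wrong label was not tested.

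FUT3, FUT5 and FUT6 lie side by side on the minus strand of chromosome 19 (GRCh38, GENCODE 29), FUT6 at chr19:5830610-5839731, FUT3 at chr19:5842888-5851474 and FUT5 at chr19:5865826-5870540. They are near copies of each other, which bears on how well reads can be assigned to each. The coding sequence of FUT3 was 93.9% identical to that of FUT5 and 89.1% identical to that of FUT6 over the aligned bases, and FUT5 and FUT6 were 91.5% identical. The longest identical run was 229 bases for FUT3 with FUT5, 272 for FUT3 with FUT6 and 265 for FUT5 with FUT6. A stretch of 120 coding bases is shown as an example of where reads can tell the 3 genes apart, with the 35 positions that differ among them in capitals. It covers coding bases 328 to 447 of FUT3, 367 to 486 of FUT5 and 325 to 444 of FUT6 in the GENCODE 29 transcripts.
FUT3: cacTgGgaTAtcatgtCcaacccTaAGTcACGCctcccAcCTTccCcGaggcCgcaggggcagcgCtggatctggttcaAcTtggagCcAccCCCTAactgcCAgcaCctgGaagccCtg
FUT5: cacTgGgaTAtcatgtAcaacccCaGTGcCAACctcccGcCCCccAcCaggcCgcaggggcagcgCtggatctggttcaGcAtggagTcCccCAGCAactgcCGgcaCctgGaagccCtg
FUT6: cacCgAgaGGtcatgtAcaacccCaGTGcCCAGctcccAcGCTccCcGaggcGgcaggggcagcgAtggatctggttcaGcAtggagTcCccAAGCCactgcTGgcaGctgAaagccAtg
In this stretch FUT5 differed from FUT3 at 21 positions and FUT6 at 30.

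Of all windows of 100 bases in its annotated transcripts, FUT3 shared 283 of 3347 (8.46%) with another gene, 211 with FUT5 and 210 with FUT6. FUT6 shared 252 of 5004 (5.04%). FUT5 shared 1544 of 1891 (81.7%), all of them also in AC024592.3, an annotated gene on the same strand that contains FUT5 sequence. AC024592.3 had 0 reads in every library, but FUT5 reads can still be lost to counting rules on shared reads. FUT1, FUT10 and POFUT1 shared 0 windows, and FUT2 shared 65 of 3418 (1.90%) with SEC1P, a pseudogene of the same family beside it. FUT4, FUT8 and FUT11 shared 9.30%, 10.8% and 9.45%, mostly with PIWIL4, FUT8-AS1 and AC022400.8, of which the last pair run on the opposite strand. Whether the authors' counting used strand is not given in the sources used here, so reads from a gene and its antisense partner cannot be told apart.

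**Figure D1:**
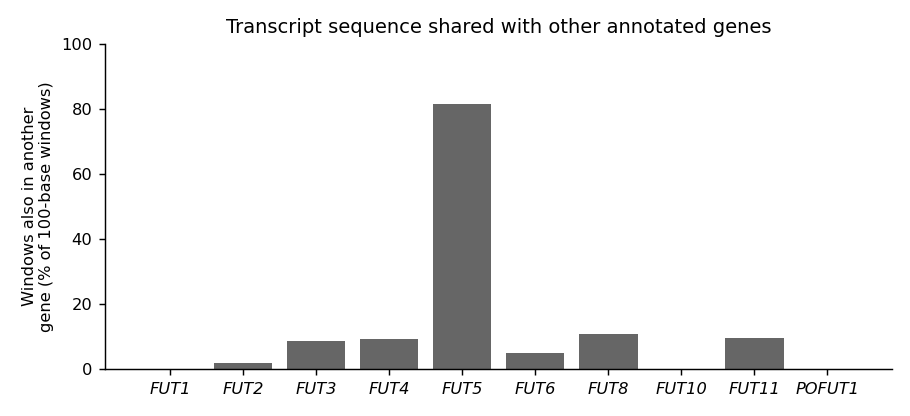
Share of each gene's transcript windows of 100 bases (y axis, percent of windows) that also occur in another annotated gene, for the 10 fucosyltransferases (x axis). FUT5 stands at 81.7%, while the other 9 genes are between 0 and 10.8%.

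The Lewis gene FUT3 differed most between the groups. It had 53.7, 164 and 165 normalized reads in GOLPH3 replicates 1, 2 and 3 (50, 199 and 155 reads) and 30.9, 1.10 and 8.58 in Vector replicates 1, 2 and 3 (30, 1 and 10 reads). The groups did not overlap, with 53.7 in the lowest GOLPH3 library against 30.9 in the highest Vector library, and the Vector libraries spanned 28.2-fold among themselves against 3.08-fold for GOLPH3. Mean levels of 128 ± 64.2 and 13.5 ± 15.5 (SD, n = 3 each) gave a ratio of 9.45. The log2 difference was 3.73 (SE 0.86, 95% confidence interval 1.86 to 5.60). This value was the second largest rise of all genes tested, and it put this gene family forward. Some falls were larger in size, such as -8.03 for CDH2. In the libraries of equal P number the log2 difference of FUT3 was 2.37 at P12 and 4.12 at P13, with 1 library of each group at each number. The size depended on single Vector libraries, since it was 2.71 without Vector replicate 2, the library with 1 read, and 4.68 without Vector replicate 1. In bulk RNA, fewer cells that express FUT3 and less FUT3 RNA per cell cannot be told apart.

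FUT6, the plasma-type α1,3-fucosyltransferase of the same cluster, was near the limit of detection in both groups. Its values were 7.51, 4.95 and 7.47 in GOLPH3 (7, 6 and 7 reads) and 1.03, 0 and 0.858 in Vector (1, 0 and 1 reads). The groups did not overlap, and the mean of 6.64 ± 1.47 (SD, n = 3) in GOLPH3 was at least 2.23-fold higher than the limit of 3 reads per library in Vector. FUT6 met the filter on low values through the libraries in which it was high. FUT5, the third gene of the cluster, was not tested, since it had 0, 0 and 3.2 normalized reads in GOLPH3 (3 reads in replicate 3) and 0 in every Vector library. Both groups were at or under 3 reads there, so no fold is given.

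FUT4, which makes Lewis x in cells of the blood lineage and in many epithelia, had 191, 233 and 241 normalized reads in GOLPH3 and 216, 227 and 197 in Vector. The groups overlapped, with means of 222 ± 26.8 and 213 ± 15.3 (SD, n = 3 each). The log2 difference was 0.05 (SE 0.32, 95% confidence interval -0.64 to 0.74).

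FUT2, the secretor gene, and FUT1, the H gene, lie on chromosome 19 as well, at chr19:48695971-48705950 on the plus strand and chr19:48748011-48755390 on the minus strand. FUT2 had 121, 174 and 211 normalized reads in GOLPH3 and 56.6, 53.7 and 80.7 in Vector. All 3 libraries labelled GOLPH3 were above all 3 labelled Vector. The means were 169 ± 45.2 and 63.7 ± 14.8 (SD, n = 3 each), a ratio of 2.65, and the log2 difference was 1.38 (SE 0.39, 95% confidence interval 0.52 to 2.24), with 1.6 at P12 and 1.38 at P13. FUT1 had 342, 811 and 528 in GOLPH3 and 531, 198 and 209 in Vector. Here the groups overlapped, since Vector replicate 1 (P12) was as high as GOLPH3 replicate 3. The FUT1 means were 561 ± 236 and 313 ± 189 (SD, n = 3 each), and the log2 difference was 0.91 (SE 0.44, 95% confidence interval -0.05 to 1.87), falling to 0.60 when GOLPH3 replicate 2 was left out and reaching 1.37 without Vector replicate 1.

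FUT8, the core fucosyltransferase, had 1006, 479 and 708 normalized reads in GOLPH3 and 531, 849 and 512 in Vector. The groups overlapped, and the log2 difference was 0.19 (SE 0.35, 95% confidence interval -0.58 to 0.95). FUT10 had 489, 224 and 382 in GOLPH3 and 227, 726 and 294 in Vector, with a log2 difference of -0.07 (SE 0.45, 95% confidence interval -1.06 to 0.92). The directions of FUT8 and FUT10 were not stable, since FUT8 stood at -0.08 without GOLPH3 replicate 1 and FUT10 ranged from -0.41 to 0.42 over the libraries left out. FUT11 had 451, 311 and 586 in GOLPH3 and 251, 334 and 198 in Vector. The groups overlapped because of GOLPH3 replicate 2 and Vector replicate 2, and the log2 difference was 0.77 (SE 0.35, 95% confidence interval 0.00 to 1.53). POFUT1, the protein O-fucosyltransferase that Notch needs, had 1240, 1504 and 1582 in GOLPH3 and 1712, 1528 and 1848 in Vector. These groups overlapped too, with means of 1442 ± 179 and 1696 ± 160 (SD, n = 3 each) and a log2 difference of -0.24 (SE 0.27, 95% confidence interval -0.82 to 0.34).

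**Figure D2:**
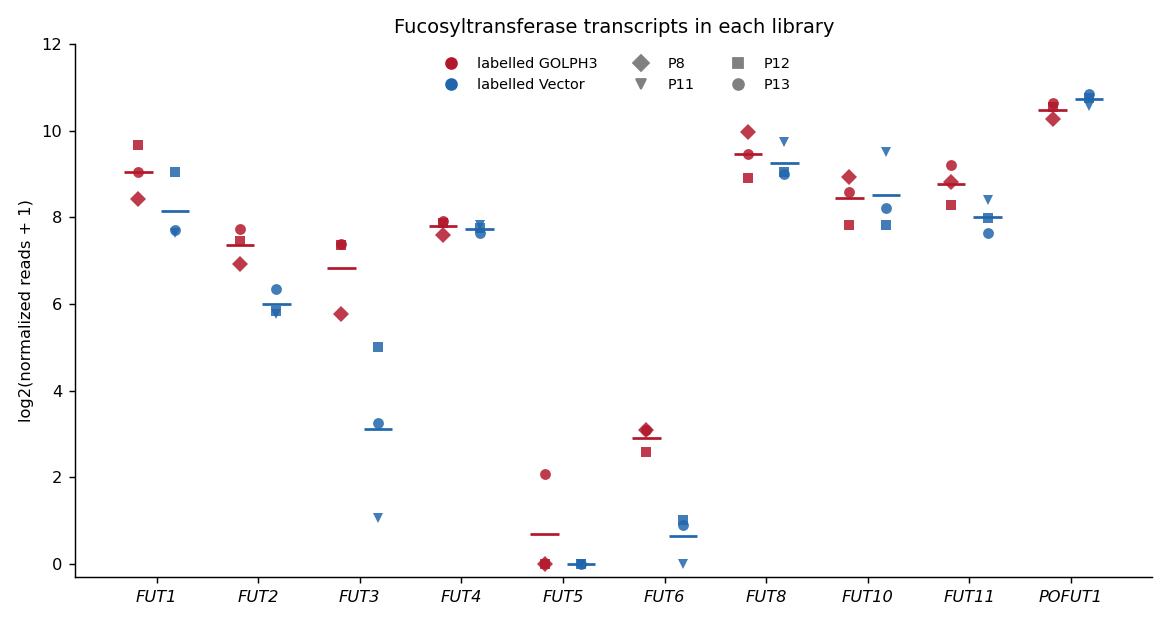
Level of each fucosyltransferase in each library as log2(normalized reads + 1) (y axis), with red for libraries labelled GOLPH3, blue for those labelled Vector, the marker shape for the number after P and a line for the mean of the 3 log2 values. FUT2, FUT3 and FUT6 are the 3 genes whose red points all lie above the blue points.

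In all, 9 of the 10 genes passed the filter on low values, 3 of them (FUT2, FUT3 and FUT6) had groups that did not overlap with GOLPH3 higher, and 0 had groups apart with GOLPH3 lower. Over all genes tested, 9.20% had groups apart with GOLPH3 higher and 12.8% with GOLPH3 lower. The same 3 genes had a log2 difference over 1, against 11.2% of all genes. One of the 3, FUT3, is the gene behind the choice, and FUT6 had to be high in GOLPH3 to pass the filter, so nothing is read from these counts.

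A pattern seen after the values were known concerned the number after P. In each group the library with the lowest number (P8 for GOLPH3, P11 for Vector) had the lowest level of FUT1, FUT2, FUT3 and POFUT1 and the highest level of FUT8 and FUT10. Thus 4 of the 9 genes were lowest there in both groups, against 20.4% of all genes tested, and 2 of the 9 were highest there in both, against 21.1%. Within Vector the lowest rank rested on a narrow margin to the next library for FUT2 (53.7 against 56.6) and FUT1 (198 against 209). The P numbers of the groups are not balanced, and the fits with P as a covariate and as a block are given with the alternatives.

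Per kilobase of merged exon, which allows levels to be compared between genes, POFUT1 stood first in both groups at 224 ± 27.9 normalized reads per kb in GOLPH3 and 264 ± 24.9 in Vector (SD, n = 3 each). In GOLPH3 the order went on with FUT1 at 129 ± 54.4, FUT8 at 109 ± 39.4, FUT11 at 91.5 ± 28.0, FUT10 at 65.2 ± 23.8, FUT2 at 50 ± 13.4, FUT3 at 41.1 ± 20.6, FUT4 at 36.6 ± 4.42, FUT6 at 1.53 ± 0.338 and FUT5 at 0.536 ± 0.928. Neighbours in this order overlapped except for POFUT1 with FUT1 and FUT4 with FUT6. In Vector the order was FUT8 at 94.2 ± 28.2, FUT10 at 74.2 ± 48.3, FUT1 at 72.1 ± 43.5, FUT11 at 53.2 ± 14, FUT4 at 35.2 ± 2.53, FUT2 at 18.8 ± 4.38, FUT3 at 4.35 ± 4.98, FUT6 at 0.145 ± 0.127 and FUT5 at 0. There, FUT8, FUT10 and FUT1 each overlapped the gene after it, as did FUT6, and every other pair of neighbours was apart. With the length of the longest transcript in place of merged exons, FUT1 and FUT11 exchanged places in both groups and the other 8 genes kept theirs. FUT3 thus stood beside FUT2 and FUT4 in the libraries labelled GOLPH3 and below both in those labelled Vector.

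**Figure D3:**
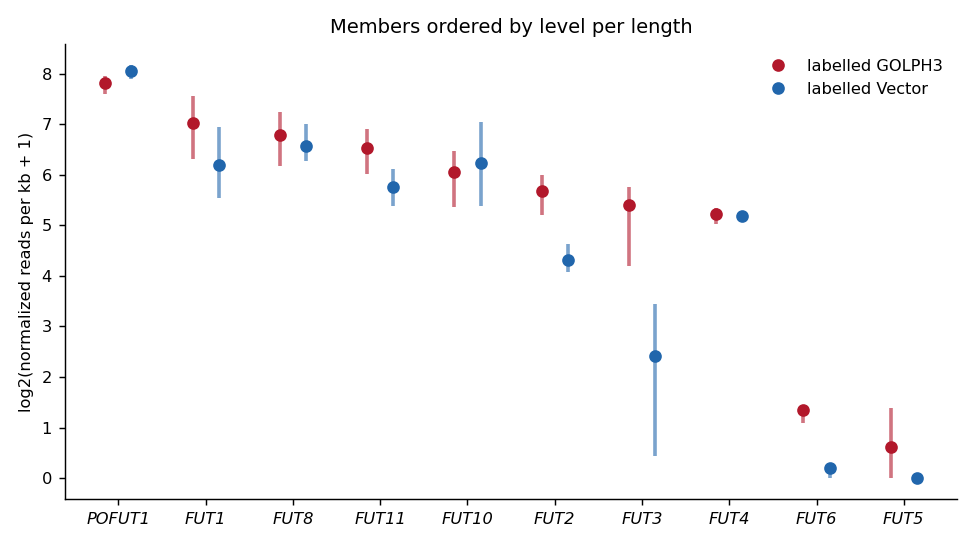
Level per length as log2(normalized reads per kb + 1) (y axis) for the fucosyltransferases in order of their GOLPH3 mean (x axis), with points at the group mean and bars from the lowest to the highest of 3 libraries. FUT3 reads 41.1 per kb in GOLPH3 and 4.35 in Vector, and all neighbouring GOLPH3 bars overlap except those of POFUT1 with FUT1 and FUT4 with FUT6.

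The promoters of FUT3, FUT2 and FUT6, the 3 genes whose groups did not overlap, are shown with matches to CAGGTG on either strand in capitals, the E-box letters that ZEB and SNAI repressors bind. They are RefSeq sequences of 300 bases on GRCh38.p14, from 250 bases before to 50 after the annotated start, at chr19:5851400-5851699 (minus strand) for FUT3, chr19:48695721-48696020 (plus strand) for FUT2 and chr19:5839653-5839952 (minus strand) for FUT6.
FUT3: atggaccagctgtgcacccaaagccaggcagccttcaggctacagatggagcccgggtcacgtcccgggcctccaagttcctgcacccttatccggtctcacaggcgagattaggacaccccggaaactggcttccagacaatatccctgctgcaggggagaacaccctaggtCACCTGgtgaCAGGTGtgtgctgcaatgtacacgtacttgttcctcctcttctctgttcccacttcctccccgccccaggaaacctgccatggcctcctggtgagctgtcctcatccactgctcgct
FUT2: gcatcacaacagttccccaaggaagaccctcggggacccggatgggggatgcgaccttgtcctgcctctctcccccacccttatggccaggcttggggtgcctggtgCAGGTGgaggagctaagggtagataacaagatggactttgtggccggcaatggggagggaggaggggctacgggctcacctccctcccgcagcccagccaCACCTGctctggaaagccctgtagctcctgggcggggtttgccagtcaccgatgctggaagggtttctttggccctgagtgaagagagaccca
FUT6: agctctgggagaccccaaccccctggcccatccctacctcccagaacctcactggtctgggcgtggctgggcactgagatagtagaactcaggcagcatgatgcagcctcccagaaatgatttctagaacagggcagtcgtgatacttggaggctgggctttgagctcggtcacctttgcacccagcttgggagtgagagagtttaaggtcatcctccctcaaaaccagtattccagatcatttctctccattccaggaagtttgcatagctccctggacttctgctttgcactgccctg
FUT3 held 2 matches that begin at -77 and -67 from the start site, FUT2 held 2 at -143 and -43, and FUT6 held 0. Of the other genes with a promoter in the table, FUT1 held 2 matches and FUT8 held 1 in their first listed promoters, and FUT4 and POFUT1 held 0. Of 35116 human promoters of the same length, 20.6% held the letters. Shares for the other letters searched on both strands were 33.6% for AGGAAG, the core of ETS factors such as ELF3, 10.6% for TTTATG, bound by CDX factors, and 11.9% for CAAAGT, bound by HNF4. AGGAAG matched once each in FUT2 (-231), FUT3 (-15), FUT4 (-21) and FUT6 (6) and in further listed promoters of FUT1 (-29) and FUT8 (-113), CAAAGT matched in FUT2 (-109) and FUT8 (-98 and, in another promoter, 7), and TTTATG matched in none of the 7 genes searched. A match is a description of letters and not of binding.

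The 8 lists tested beside the members held 61 genes, of which 55 passed the filter. The lists cover genes that add, supply, extend, carry or remove fucose and genes of the Lewis precursor chains. They also cover sialyl, ABO and Sd(a) genes and intestinal transcription factors. With limma and Benjamini-Hochberg adjustment over all genes, 3 of the 55 (5.45%) rose and 1 (1.82%) fell, against 0.953% and 4.12% of all genes tested. Of all calls 18.8% were higher with limma and 30.3% with DESeq2. The unadjusted p was under 0.05 for 10 higher and 5 lower. The 4 called genes were B3GNT3, B3GNT7 and GCNT2 of the 15 genes of the Lewis precursor chains, and ELF3 of the 6 intestinal transcription factors tested. The exact permutation p was 0.1 for each, the smallest that 3 libraries against 3 can give. Across the 55 genes the median log2 difference was 0.40, against 0.02 for all genes tested. The lists were chosen with earlier results of these data known, so these shares and medians are a description.

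B3GNT3, which extends core O-glycans with N-acetylglucosamine and so builds the chains that Lewis enzymes cap, had 551, 1009 and 1062 normalized reads in GOLPH3 and 330, 286 and 221 in Vector. The means were 874 ± 281 and 279 ± 54.8 (SD, n = 3 each), and the log2 difference was 1.6 (SE 0.34, limma adjusted p = 0.0162). The call was lost, at adjusted p between 0.0546 and 0.0904, without GOLPH3 replicate 2 or 3 and without Vector replicate 1 or 3. B3GNT7, another N-acetylglucosaminyltransferase, had 239, 181 and 448 in GOLPH3 and 78.2, 83.3 and 96.1 in Vector, with a log2 difference of 1.64 (SE 0.40, limma adjusted p = 0.0346). Its adjusted p was 0.191 without GOLPH3 replicate 3, 0.156, 0.0642 and 0.089 without Vector replicates 1, 2 and 3, and 0.0503 with a pseudocount of 0.1. GCNT2, which branches the same chains into the I antigen, fell from 58.7, 61.3 and 66.1 in Vector to 11.8, 11.5 and 9.61 in GOLPH3, a log2 difference of -2.40 (SE 0.47, limma adjusted p = 0.00921). Without Vector replicate 1 or 3 its adjusted p was 0.0681 or 0.0701. The other 12 chain genes were not called. Among them B3GALT5, the β1,3-galactosyltransferase that makes the type 1 chain on which Lewis a is built, had 96.6, 980 and 287 in GOLPH3 and 351, 103 and 116 in Vector (log2 difference 0.90, SE 0.72, limma adjusted p = 0.57), a gene named after its values were seen because its highest library was P12 in both groups.

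ELF3, an ETS factor of epithelia, had 2562, 3114 and 4446 normalized reads in GOLPH3 and 1391, 841 and 1123 in Vector. The means were 3374 ± 968 and 1118 ± 275 (SD, n = 3 each), and the log2 difference was 1.58 (SE 0.31, limma adjusted p = 0.00958), which went to an adjusted p of 0.0541 without GOLPH3 replicate 3. CDX1, an intestinal factor of the same list, was not tested.

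The 6 genes of GDP-fucose supply gave 0 calls with limma, 0 with edgeR and 1 with DESeq2. A single gene had an unadjusted p under 0.05 and was lower. This was FPGT, which makes GDP-fucose in the salvage route, at 200, 136 and 93.9 in GOLPH3 and 337, 368 and 310 in Vector (log2 difference -1.30, SE 0.36, limma adjusted p = 0.064). SLC35C1, the transporter of GDP-fucose into the Golgi, had a log2 difference of 0.63 (limma adjusted p = 0.313). GMDS and TSTA3, which make GDP-fucose from GDP-mannose, were named after their values were seen. HCT-116 is known for a defect of GMDS, which cannot be seen in reads summed over the gene, and GMDS had 321, 638 and 605 in GOLPH3 and 648, 326 and 481 in Vector (limma adjusted p = 0.924). TSTA3 spread most, with 16.1, 471 and 56.6 in GOLPH3 and 23.7, 24.1 and 209 in Vector, 29.2-fold and 8.81-fold within the groups (limma adjusted p = 0.819). Whichever group is taken, 1 library far above the others set its mean.

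The 2 fucosidases, FUCA1 and FUCA2, had log2 differences of 0.19 and 0.45 (limma adjusted p = 0.783 and 0.44), with 0 calls by limma, edgeR or DESeq2 and 0 at an unadjusted p under 0.05. Of the other fucosyltransferases, POFUT2 had a log2 difference of 0.49 (limma adjusted p = 0.459, 0 calls by edgeR and DESeq2 and 0 at an unadjusted p under 0.05), while FUT7 and FUT9 were at or under 3 reads in every library. Of the 7 sialyl, ABO and Sd(a) genes tested, 0 were called by limma, edgeR or DESeq2 and 1, ST3GAL1, had an unadjusted p under 0.05 (log2 difference 0.75, limma adjusted p = 0.18), with ST3GAL6 at -0.84 (limma adjusted p = 0.323). Of the 4 genes that extend O-fucose, limma called 0 (3 had an unadjusted p under 0.05, 2 of them higher), and edgeR and DESeq2 each called MFNG, one of the Fringe enzymes that act on Notch. MFNG had 75.1, 84.9 and 91.8 in GOLPH3 and 27.8, 28.5 and 28.3 in Vector, with a log2 difference of 1.54 (SE 0.41, limma adjusted p = 0.0569), and B3GLCT had -1.05 (limma adjusted p = 0.121). Of the 14 carriers of Lewis antigens tested, limma called 0 (4 had an unadjusted p under 0.05, 2 of them higher), edgeR 0 and DESeq2 1. That 1 was CD44, the hyaluronan receptor, at 10839, 9415 and 10703 in GOLPH3 and 5159, 6473 and 3321 in Vector (log2 difference 1.10, SE 0.31, limma adjusted p = 0.0656), and LAMP2 had -0.84 (limma adjusted p = 0.153).

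Several of these genes passed the threshold once the number after P entered the limma fit. Calls rose over all genes as well, from 5.07% without P to 9.04% with P as a covariate and 22.9% with P as a block. With P as a covariate the adjusted p was 0.0111 for FPGT, 0.0397 for MFNG, 0.0391 for B3GLCT, 0.0486 for CD44 and 0.0241 for LAMP2, so FPGT, B3GLCT and LAMP2 were lower and MFNG and CD44 higher in GOLPH3. With P as a block the same 5 genes passed, and so did SLC35C1 (adjusted p = 0.0407), FUCA2 (0.0283), ST3GAL1 (9.52e-05) and ST3GAL6 (0.000185). The block rests on the 4 libraries at P12 and P13 and leaves 1 residual degree of freedom.

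**Figure D4:**
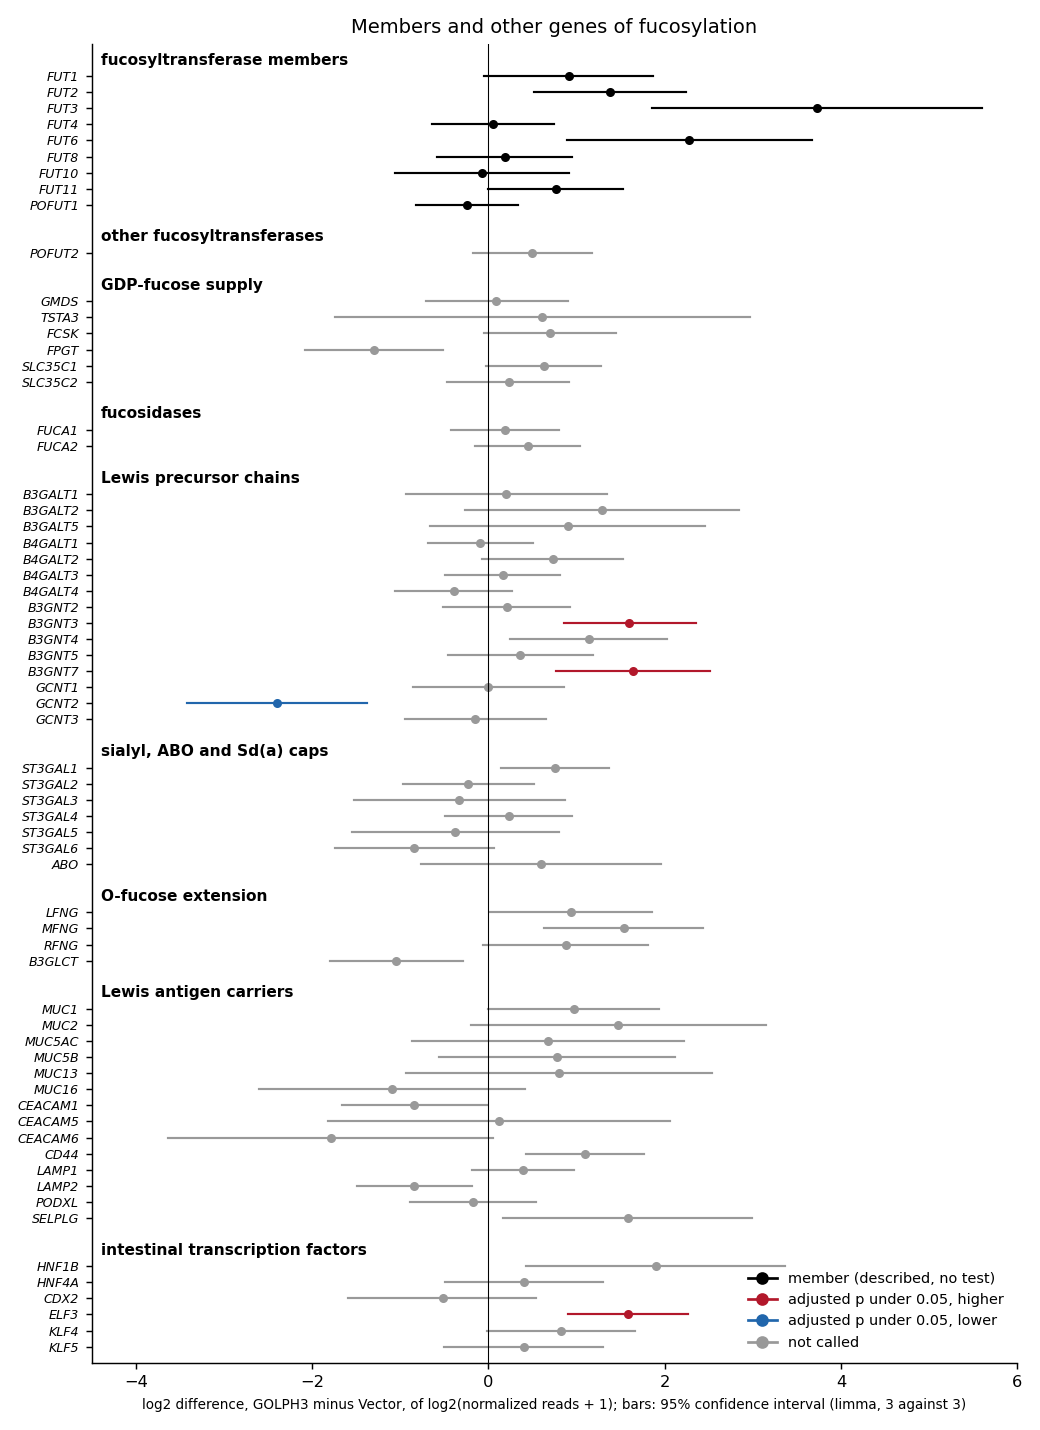
Log2 difference, GOLPH3 minus Vector, of log2(normalized reads + 1) with its 95% confidence interval from limma (x axis) for each gene tested, grouped by list (y axis), with the fucosyltransferases in black and the other genes in red (adjusted p under 0.05, higher), blue (lower) or grey (not called). FUT3 lies farthest to the right at 3.73, and GCNT2 is the blue point at -2.40.

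The neighbours of both gene pairs on chromosome 19 were compared in the same fit. Within 50 kb of FUT6, FUT3 and FUT5, 9 of 13 other annotated genes were tested and 0 were called by limma, edgeR or DESeq2, with 0 at an unadjusted p under 0.05. NRTN on one side had a log2 difference of 0.75 (SE 0.58, limma adjusted p = 0.556) and NDUFA11 on the other had 0.08 (SE 0.38, limma adjusted p = 0.942). Within 50 kb of FUT1 and FUT2, 8 of 9 were tested, limma and edgeR called 0, DESeq2 called 2 and 2 had an unadjusted p under 0.05. Those 2 were SEC1P and NTN5. SEC1P, the pseudogene that shares windows with FUT2, had 38.6, 13.2 and 26.7 in GOLPH3 and 8.23, 2.19 and 5.15 in Vector (log2 difference 2.14, SE 0.65, limma adjusted p = 0.0887), and the groups did not overlap. NTN5, which lies within the span of SEC1P on the other strand, had a log2 difference of 1.61 (SE 0.65, limma adjusted p = 0.211).

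**Figure D5:**
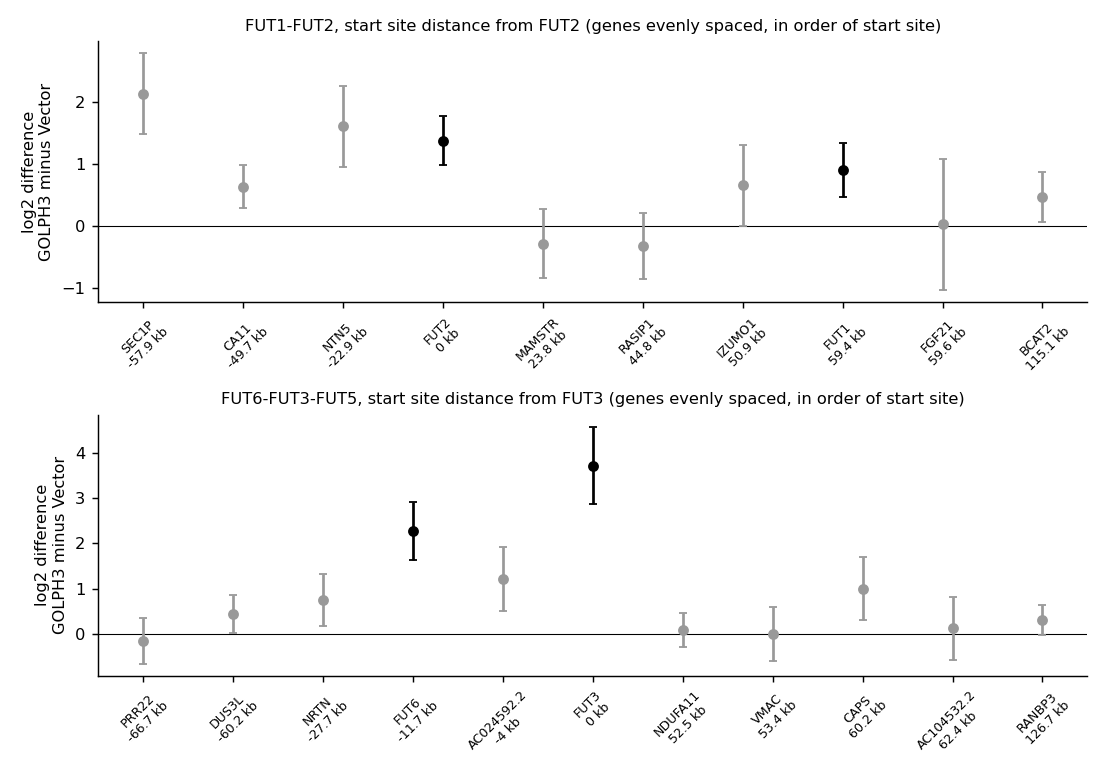
Log2 difference, GOLPH3 minus Vector (y axis, bars are the SE from limma), of the genes tested around FUT1 and FUT2 (upper panel) and around FUT6, FUT3 and FUT5 (lower panel), evenly spaced in order of start site with the distance from FUT2 or FUT3 under each name. Members are black and the neighbours, none of which limma called, are grey.

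The 5 genes whose profile over the 6 libraries was most like that of FUT3, among 12661 genes with a mean of at least 50, were PICART1, CST6, KRT86, KRT15 and GDF15. Likeness is the root mean square distance between centred log2(value + 1) profiles, which was 0.58 for PICART1, a noncoding RNA, 0.88 for CST6, a cystatin, 0.90 for KRT86 and for KRT15, both keratins, and 0.91 for GDF15, a growth differentiation factor. PICART1 had 38.6, 106 and 124 in GOLPH3 and 31.9, 0 and 15.4 in Vector, and shared with FUT3 a lowest library at Vector replicate 2. These genes were ranked on the same 6 libraries, and the list is a description.

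Markers of cell types were measured beside these values. Of the 11 colon epithelial markers tested, limma called KRT18 and KRT19 higher and 0 lower. Over all genes tested, 0.953% were called higher and 4.12% lower. At an unadjusted limma p under 0.05, 5 of the 11 were higher and 0 lower. The groups overlapped for CDH17, VIL1, CDX2, CEACAM5 and GPA33, and CDX2 had a log2 difference of -0.52. The summed level of the 14 listed was 62857 to 134429 in GOLPH3 and 30034 to 41160 in Vector, and KRT8, KRT18 and KRT19 made up most of it. KRT20 was at 0 in every library, and CDX1 and TFF3 were at or under 3 reads. Of the 10 mesenchymal or fibroblast markers tested, limma called VIM, CDH2, PDGFRA, TWIST2 and ZEB1 lower and 0 higher. At an unadjusted limma p under 0.05, 7 were lower and 2 higher. The 2 higher were COL1A1 and THY1, whose groups did not overlap. Sums over the 12 listed were 979 to 1552 in GOLPH3 and 2844 to 5236 in Vector, with DCN at 0. COL1A1 made up most of the GOLPH3 sums (1129, 800 and 1499), and VIM most of the Vector sums (3407, 1653 and 3194). The blood cell markers had sums of 49.5 to 98.2 in GOLPH3 and 88.7 to 261 in Vector, with CD3E at 0. Of 6 endothelial markers limma, edgeR and DESeq2 called 0 (0 at an unadjusted p under 0.05), with sums of 26.4 to 47.2 and 29.6 to 45.5. The epithelial and mesenchymal sums did not overlap between the groups, as FUT2, FUT3 and FUT6 did not, and their part in the differences of these genes was not tested.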

How the data were processed

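Total RNA of 6 HCT-116 samples, 3 per group, was sequenced. The authors deposited 1 signal for each gene in each library. The submitters' processing notes name fastp 0.20.0, HISAT2 2.1.0, Cufflinks, featureCounts 1.6.1, DESeq2 and GRCh38. Nonzero values were whole multiples of 1 step per library (100.00% within 0.05, steps 0.8246 to 1.0955), as for read counts that the authors divided by size factors, and reads were recovered from them. For 44 identifiers on more than 1 row, the rows were summed. Of 60546 identifiers, 58367 (96.4%) were in GENCODE 29, which gave positions and lengths. RefSeq promoters were matched by symbol for 7 of the 10 genes.

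Groups came from the sample titles. limma 3.58.1 (R 4.3.3, prior variance trend) was fitted to log2(value + 1) of all 6 libraries without covariates. Genes that reached 1 in 3 libraries or more entered, p-values were adjusted by Benjamini-Hochberg over 26536 genes, and single genes were compared by exact two-sided permutation tests. edgeR 4.0.16 with TMM and DESeq2 1.42.0 were run on the recovered reads as alternatives, beside quantile normalization, other filters, a pseudocount of 0.1, blocks, a covariate, each library left out and a stricter threshold. Scripts were tested on simulated data. No 2 libraries of a group agreed within sampling noise.

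The members and lists were chosen with earlier results of these data known. Named were all members, GOLPH3, the called genes of each list (otherwise the 2 smallest p), neighbours within 50 kb of either cluster and the 5 profiles most like FUT3, while B3GALT5, GMDS and TSTA3 were added after their values were seen. Results for some listed genes are not reported here.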

Additional observations from a re-analysis of the deposited data

Results flagged for a closer look

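Libraries of both groups share the numbers P12 and P13, which gives 1 GOLPH3 and 1 Vector library at each. Cell type markers aside, 5 of the genes whose values are given above had differences of opposite sign in these pairs. Of these, FUT10 and GMDS were nearly equal between the groups at P12. Some of the markers also changed sign, among them CEACAM5 and VIL1, and are left out of this count. FUT8 had a log2 difference, GOLPH3 minus Vector, of -0.15 at P12 and 0.47 at P13. FUT10 had -0.02 at P12 and 0.38 at P13. GMDS had -0.02 at P12 and 0.33 at P13. TSTA3 had 4.26 at P12 and -1.86 at P13. NRTN, a neighbour of FUT6, had -0.16 at P12 and 0.67 at P13. With a single library of each group at each number, the difference between the pairs was not tested.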

How the results depend on the processing

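The log2 difference of FUT3 stayed positive under all 15 alternatives (2.71 to 4.68), as did those of FUT2 (1.2 to 1.6), FUT1 (0.60 to 1.37) and FUT11 (0.55 to 1.01), and FUT6 did under 13 (edgeR and the filter at 10 dropped it as too low; 1.87 to 3.80, with 3.36 from DESeq2 and 3.80 with a pseudocount of 0.1). POFUT1 stayed negative (-0.31 to -0.13), while FUT4 (-0.01 to 0.20), FUT8 (-0.08 to 0.46) and FUT10 (-0.41 to 0.42) crossed 0. Between 2 and 4 members had a log2 difference over 1.

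Of the pathway genes, 3 were called higher and 1 lower. DESeq2 called 5 and 2, the P number as a block 16 and 7 (1 residual degree of freedom), and the P number as a covariate 5 and 4. The threshold of adjusted p under 0.01 with a log2 difference over 1 called 1 higher and 1 lower. With each library left out, 0 to 3 were called higher and 0 to 2 lower: 0 higher without GOLPH3 replicate 3, 1 higher and 0 lower without Vector replicate 1 or 3, and 2 lower without GOLPH3 replicate 1. Over all genes, 1346 were called, 1113 by edgeR and 1991 by DESeq2, 881 without GOLPH3 replicate 3, 459, 895 and 481 without Vector replicates 1, 2 and 3, 2399 with the P covariate and 6082 with the P block. Of the 1346 calls 18.8% were higher in GOLPH3, against 30.3% with DESeq2, 37.5% with the P covariate, 43.3% with the P block and 6.36% without GOLPH3 replicate 3. The cause of these changes was not tested.

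The replicate number did not pair the samples, since the deviations of same-numbered libraries correlated at -0.23, -0.15 and 0.26, the last of which is also the pair at P13. By the number after P, the correlation was 0.256 at P12, 0.259 at P13 and 0.331 for P8 with P11, and it was negative in the other 6 combinations of a GOLPH3 with a Vector library. Each library at P12 or P13 thus correlated best with the library of equal P number in the other group. P8 and P11, which have no such partner, correlated best with each other. The deviations are from the group mean and cancel out within each group, so positive correlations in some combinations force negative ones in others. The combinations are therefore not independent of each other. The main fit did not pair the libraries by P. With the replicate block 1081 genes were called, and 3 pathway genes were called higher and 1 lower, as without it. The depth limits FUT5 and FUT6, which rest on 0 to 7 reads per library.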
